A study of Mus musculus with 7 samples.

Results

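The hnRNP and splicing factor genes of mouse spleen monocytes were taken by symbol: every gene whose name starts with Hnrnp, with Srsf and a digit, or with Sf3a, Sf3b or Snrp. This gave 47 of the 22180 genes with a single-symbol probe set, namely 19 hnRNP genes, 10 Srsf genes, 9 Sf3a and Sf3b genes and 9 Snrp genes. The rule uses symbols and no threshold on any value. Expression was measured on 7 arrays, each with RNA of 1 mouse under 1 condition, and 2 mice were used. Mouse 1 gave unstimulated cells and cells treated with HL7G, R848, CpG B or poly I:C, and mouse 2 gave unstimulated and HL7G-treated cells. HL7G is a monoclonal antibody against phospholipids, a type of autoantibody that patients with antiphospholipid syndrome carry, and it was used at 400 ng/ml. R848, which activates TLR7, was used at 2 µg/ml, the TLR9-activating oligonucleotide CpG B at 2.5 µM, and the double-stranded RNA mimic poly I:C, sensed by TLR3, at 1 µg/ml. Stimulation lasted 3 h, and EPCR (the protein C receptor of endothelium, gene Procr) was wild-type in all groups. The unstimulated and HL7G groups therefore had n = 2 (1 array per mouse), and each agonist had 1 array from mouse 1 and no replicate of its own. Strain, age, the way the monocytes were selected and the time in culture of the unstimulated cells were not stated in the sources used, and the IgG condition named in the protocol was not analysed here.

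Nuclear pre-mRNA is packaged by heterogeneous nuclear ribonucleoproteins (hnRNPs), which bind RNA along the transcript and influence splicing, export and stability. SR proteins (Srsf genes) carry serine- and arginine-rich tails, bind exonic enhancers and recruit the splicing machinery. The machinery itself is built from U-type snRNPs, most with a ring of Sm proteins (among them Snrpd1, Snrpd2, Snrpd3, Snrpe and Snrpg). The SF3A and SF3B complexes are part of the U2 snRNP that recognises the branch point. In myeloid cells, stimulation through Toll-like receptors is known to be followed by changes in splicing of many transcripts.

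All values are log2 levels as the authors deposited them, and a difference of 1 on this scale is a doubling. A gene was tested in limma if it reached a log2 level of 5 on at least 1 array, which 11119 genes did, and was called at a Benjamini-Hochberg adjusted p under 0.05 over all of them. Of the 47 genes, 42 were tested. Hnrnpa3, the pseudogene Hnrnpa1l2-ps2, Srsf10, Srsf12 and Sf3b4 stayed below that level on every array. A further 11 genes reached it only on stimulated arrays, so counts are given over all 47 genes. Hnrnpa1, Hnrnph3, Snrpa, Snrpf and Snrpn share their probe sets with other symbols and were left out by the rule.

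With HL7G, 25 of the 47 genes rose and 0 fell in limma's fit, where 16.3% of all genes tested were called higher and 1.89% lower. At an unadjusted p under 0.05, limma had 32 of the 47 genes in either direction (35.9% of all genes tested). The median HL7G minus unstimulated difference over the 47 genes was 1.12 (range -0.85 to 3.24), with 43 genes above 0 and 28 at 1 or more. Over all 22180 genes the median difference was -0.12, with 38.6% above 0. Genes are termed bright if their 7 arrays averaged 6 or higher, an average that includes the stimulated arrays. The 1337 bright genes had a median difference of 0.86, with 73.9% above 0 and 541 called higher in the fit above. The 19 of them in the set had 1.79, 94.7% and 15. Average level and HL7G difference had r = 0.617 (Pearson) over the 47 genes and 0.313 over all genes tested. The part of level in the rise was not tested. Both HL7G arrays lay above both unstimulated arrays for 40 of the 47 genes, and for 25.6% of all genes. The called genes spanned 2.00-fold (Sf3a3) to 9.47-fold (Hnrnpu). The calls were not stable when 1 unstimulated array was left out. Such a fit has 1 residual degree of freedom, from the HL7G pair alone. A count of calls from it cannot separate the array left out from the poorer estimate of spread. Without the unstimulated array of mouse 1 all 25 genes kept their sign, with differences of 0.80 to 2.51. The median over the 42 tested genes went from 1.25 to 1.11. Without that of mouse 2 the 25 differences were 1.11 to 4.08, and the median was 1.31. With quantile normalization or cyclic loess of the arrays, 17 rose and Hnrnpf was called lower, and the median over the 42 tested genes went from 1.25 to 0.82 and 0.76. Quantile normalization also turned the calls over all genes from 1814 higher and 210 lower to 1394 higher and 1027 lower.

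The median level of the 47 genes was 4.87 on the unstimulated array of mouse 1 and 5.24 on that of mouse 2. It was 6.48 and 5.998 on the HL7G arrays of mouse 1 and mouse 2, 5.95 with R848, 5.84 with CpG B and 5.85 with poly I:C. The unstimulated arrays were thus the 2 lowest, and the 5 stimulated arrays stood together above them. The number of genes at a level of 5 or more rose in the same way, from 20 and 29 on the unstimulated arrays to between 35 and 41 on the stimulated ones.

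**Figure D1:**
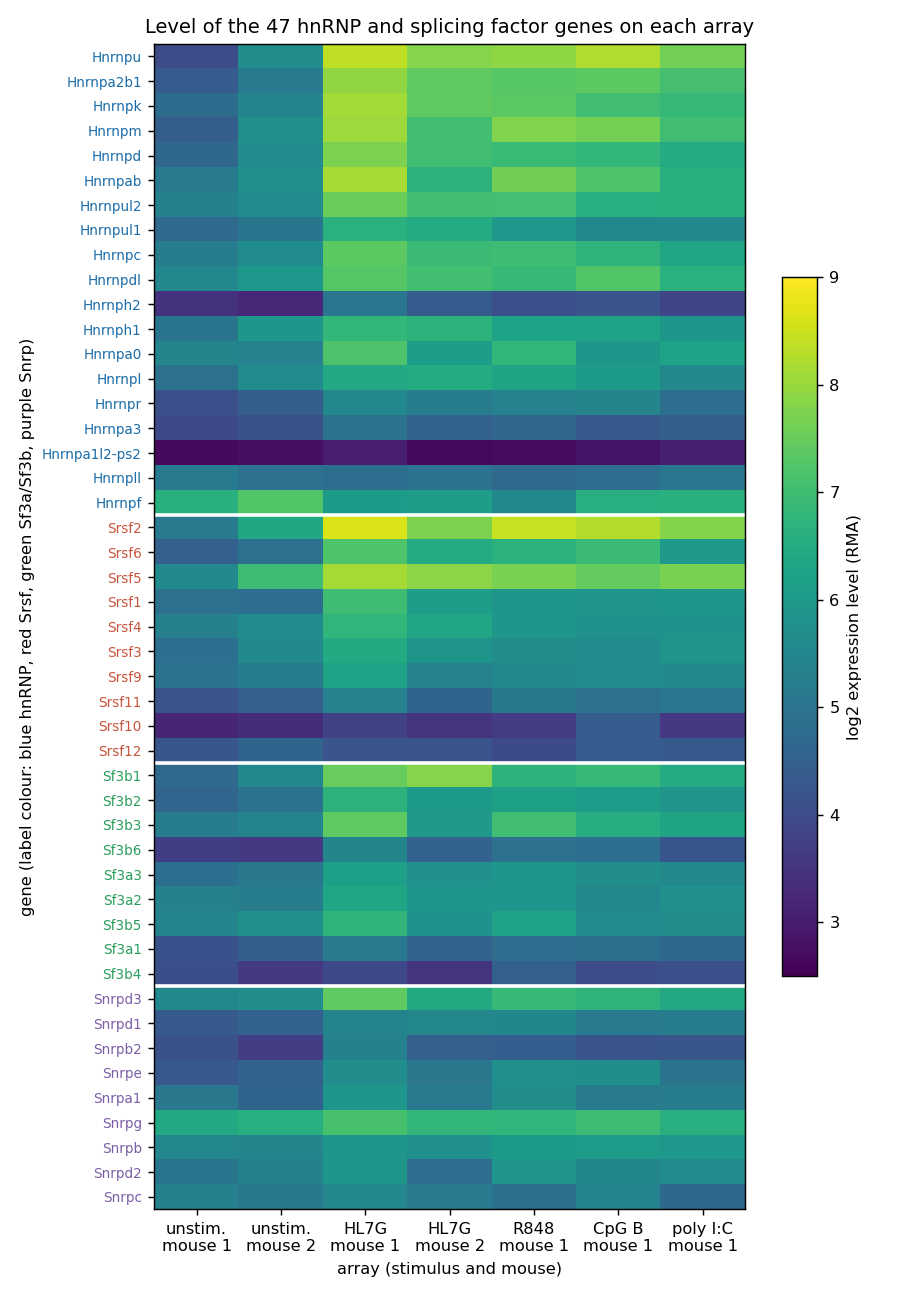
Log2 level (colour) of each of the 47 genes (rows, grouped by class and ordered within a class by the HL7G minus unstimulated difference) on each of the 7 arrays (columns). The 2 unstimulated columns are darker than the 5 stimulated ones for most rows, with medians of 4.87 and 5.24 against 5.84 to 6.48, and rows such as Hnrnpf, Hnrnpll and Srsf12 do not follow this pattern.

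The same levels moved in genes that are no splicing factors. Of 19 abundant transcripts found on the array (such as Actb, B2m and Eef1a1), limma called 11 higher and 1 lower with HL7G, with a median difference of 1.74 over the list. Their summed linear level was 1435 and 3490 on the unstimulated arrays, 7273 to 9085 with HL7G and 5519 to 6694 with the agonists. Actb, the gene of cytoplasmic actin, read 5.02 and 6.81 unstimulated, 9.34 and 8.31 with HL7G, and 8.49, 7.77 and 8.44 with R848, CpG B and poly I:C. B2m, which pairs with MHC class I heavy chains, read 5.74 and 7.90, then 10.26 and 9.91, then 9.71, 9.23 and 9.49 in the same order. Eef1a1, a translation elongation factor, read 6.61 and 9.46, then 10.80 and 10.38, then 10.36, 10.27 and 10.23. All 3 genes were lowest on the unstimulated array of mouse 1. Gapdh, a glycolytic enzyme, was the 1 transcript of the list called lower, with 9.13 and 8.75 unstimulated, 7.75 and 8.07 with HL7G, and 7.73, 8.03 and 8.32 with the agonists. RNA quality values were not used here, so the part of these array-wide readings in the rise of the splicing factor genes was not tested.

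Markers of lymphocytes moved in the same direction. Of 9 B cell markers 7 were called higher with HL7G (median difference 1.39, summed linear level 305 to 381 unstimulated, 872 to 879 with HL7G and 475 to 669 with the agonists). Of 8 T cell markers 5 were called higher (median 0.95, summed level 250 to 286, 574 to 624 and 349 to 368 in the same order). Of 12 monocyte markers found, Lyz2 alone was called higher, the median difference was 0.17, and Ly6c2, Ccr2, Fcgr1, Itgam and F13a1 stayed below 5 on all arrays, so several defining markers of the labelled cell type were dim. The monocyte markers summed to 374 to 408 unstimulated, 475 to 484 with HL7G and 379 to 410 with the agonists. Markers of NK cells, neutrophils, erythroid cells, platelets, both dendritic cell types and red pulp macrophages had 0 calls in limma. In bulk RNA, fewer cells of a type and less RNA per cell cannot be told apart, and the part of lymphocytes in the result was not tested.

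Promoter sequences were available for 41 of the 47 genes, with 54 annotated starts, from RefSeq on mouse build GRCm38.p6 (windows of 300 bases, 250 before and 50 after the start). The promoter of the gene with the largest rise in each class is shown (Hnrnpu, Srsf2, Sf3b1 and Snrpd3), with those of 2 other genes that rose (Srsf5 and Sf3b2) and 1 that was not called (Snrpc). The last 3 carry the ETS motif counted next. Each is the 150 bases before the start, on the gene's strand. Capitals mark matches on either strand to any of 4 motifs, and adjoining matches run together. The ETS motif was searched as CCGGAAG. The GC box was searched as GGGCGG. The CCAAT box was searched by the letters of its name. For the TATA box the letters were TATAAA. The windows are Hnrnpu at chr1:178337816-178337965 (minus strand), Srsf2 at chr11:116853095-116853244 (minus), Srsf5 at chr12:80945349-80945498 (plus), Sf3b1 at chr1:55027479-55027628 (minus), Sf3b2 at chr19:5295458-5295607 (minus), Snrpd3 at chr10:75517892-75518041 (plus) and Snrpc at chr17:27839937-27840086 (plus).
Hnrnpu: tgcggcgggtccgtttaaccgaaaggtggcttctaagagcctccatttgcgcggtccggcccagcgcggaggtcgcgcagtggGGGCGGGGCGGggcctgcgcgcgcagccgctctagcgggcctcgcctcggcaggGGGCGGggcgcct
Srsf2: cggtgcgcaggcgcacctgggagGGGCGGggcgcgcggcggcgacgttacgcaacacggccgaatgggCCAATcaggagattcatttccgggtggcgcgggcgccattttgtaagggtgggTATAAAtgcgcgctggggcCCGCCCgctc
Srsf5: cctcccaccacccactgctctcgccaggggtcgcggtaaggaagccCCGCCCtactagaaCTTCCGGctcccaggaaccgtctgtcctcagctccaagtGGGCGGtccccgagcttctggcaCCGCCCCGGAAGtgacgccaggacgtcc
Sf3b1: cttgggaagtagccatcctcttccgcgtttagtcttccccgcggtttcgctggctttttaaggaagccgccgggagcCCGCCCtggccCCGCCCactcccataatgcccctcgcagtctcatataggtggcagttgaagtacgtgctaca
Sf3b2: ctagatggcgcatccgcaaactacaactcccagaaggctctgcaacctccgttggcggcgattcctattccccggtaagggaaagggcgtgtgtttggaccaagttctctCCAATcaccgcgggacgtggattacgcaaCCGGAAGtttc
Snrpd3: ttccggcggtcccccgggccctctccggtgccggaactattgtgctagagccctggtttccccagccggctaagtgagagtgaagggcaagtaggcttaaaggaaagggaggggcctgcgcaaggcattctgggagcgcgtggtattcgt
Snrpc: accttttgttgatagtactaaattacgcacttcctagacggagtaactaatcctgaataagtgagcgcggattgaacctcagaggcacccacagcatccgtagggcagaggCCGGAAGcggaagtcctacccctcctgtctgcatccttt

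The stretch shown for Snrpd3 holds none of the 4 motifs, and its GC and CCAAT boxes lie elsewhere in its 300 bases. The promoters of the set are rich in CpG. The median GC content of the 54 windows was 61.0%, against 52.7% of all 32851 promoters in the table and 59.7% of the promoters of genes tested here. The median number of CpG dinucleotides was 26, against 7 and 18. The ETS motif occurred in 37.0% of the 54 windows, against 8.86% of all promoters and 14.7% of those of tested genes. A GC box occurred in 72.2%, against 35.7% and 56.5%, and a CCAAT box in 48.1%, against 37.4% and 36.2%. The TATA box (11.1%, 13.6% and 8.63%), the E-box CACGTG (9.26%, 7.15% and 9.65%), the CRE TGACGTCA (1.85%, 1.79% and 2.72%), the CT box GGGGTGGG (9.26%, 9.40% and 11.6%) and the interferon-response core GAAANNGAA (5.56%, 8.56% and 7.36%) were also searched on both strands. A match is a description of letters, and some windows belong to the same gene and overlap.

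Called and uncalled genes both carried the ETS motif, and whether it goes with the rise was not tested. It was found for 6 of the 23 called genes with a promoter (Hnrnpd, Sf3a3, Sf3b2, Sf3b6, Srsf4 and Srsf5). It was also found for 9 of the 14 tested genes with a promoter that were not called (Hnrnpf, Sf3a1, Sf3a2, Sf3b3, Snrpb2, Snrpc, Snrpe, Snrpg and Srsf11). These 9 had HL7G differences from -0.85 (Hnrnpf) to 1.36 (Sf3b3). Hnrnpu, Srsf2, Sf3b1 and Snrpd3, printed above, rose without the ETS motif. The GC box was found for 17 of the 23 called and 9 of the 14 other genes, and the CCAAT box for 13 and 5.

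hnRNP genes moved most often: 14 of 19 rose with HL7G, 0 fell, and the median difference over all 19 was 1.42. Hnrnpu encodes SAF-A, an RNA- and scaffold-attachment protein. Its level was 4.02 and 5.69 on the unstimulated arrays of mouse 1 and mouse 2, 8.37 and 7.82 on the HL7G arrays, and 7.89, 8.22 and 7.63 with R848, CpG B and poly I:C. The lowest stimulated array lay well above the higher unstimulated one. The HL7G difference was 3.24 ± 0.51 (SE, limma, adjusted p = 0.0134), and it was 4.35 in mouse 1 and 2.14 in mouse 2. Hnrnpu was also the gene of the set with the largest difference under each agonist. These values are of its brightest probe set. A second, dimmer probe set of Hnrnpu had an HL7G difference of 1.235. Its R848 level (4.16) lay between its unstimulated levels (3.63 and 4.20), and its CpG B and poly I:C levels (5.14 and 4.63) lay above both.

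Hnrnpa2b1, which binds RNA carrying transport signals and m6A marks, read 4.40 and 5.16 unstimulated, 7.92 and 7.43 with HL7G, and 7.30, 7.36 and 7.09 with R848, CpG B and poly I:C. The groups did not overlap, and both HL7G arrays stood above the 3 agonist arrays. It rose by 2.89 ± 0.32 (adjusted p = 0.0120) and had the smallest p of the 47 genes. Hnrnpk, a KH-domain protein that binds C-rich RNA, read 4.81 and 5.44, then 8.11 and 7.42, then 7.34, 7.02 and 6.82 in the same order. Its levels were again separate, with a rise of 2.64 ± 0.33 (adjusted p = 0.0120). Hnrnpk has other probe sets, with HL7G differences of -0.47 and 1.15. Hnrnpul1, an hnRNP U-like protein linked to the DNA damage response, read 4.73 and 5.02, then 6.65 and 6.50, then 5.96, 5.54 and 5.61. Its 2 HL7G arrays were close to each other and above every other array (rise of 1.70 ± 0.22, adjusted p = 0.0120). A second, dim probe set of Hnrnpul1 had an HL7G difference of 0.09.

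The other hnRNP genes that rose were Hnrnpm (2.42), Hnrnpd (2.19, AUF1, which binds AU-rich elements in unstable mRNAs), Hnrnpab (1.95), Hnrnpul2 (1.79), Hnrnpc (1.68, a core packaging protein that binds uridine tracts), Hnrnpdl (1.42), Hnrnph2 (1.36), Hnrnph1 (1.27), Hnrnpl (1.18) and Hnrnpr (1.12). Their adjusted p-values in limma lay between 0.0120 and 0.0388. Hnrnpd has a second, dimmer probe set with a difference of 0.57. Hnrnph2 reached the level of testing on the HL7G array of mouse 1 alone (5.05). Hnrnpa0, which binds AU-rich elements, differed by 1.24 ± 0.35 and missed the threshold (adjusted p = 0.0506), but passed it in the fit blocked by mouse (adjusted p = 0.0347). Hnrnpll, known for its part in the alternative splicing of CD45 in lymphocytes, had a difference of -0.14 ± 0.22 (adjusted p = 0.655). The untested Hnrnpa3 and Hnrnpa1l2-ps2 had differences of 0.73 and 0.12 at levels below 5.

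Hnrnpf, which binds G-rich RNA near splice sites, depended on the probe set. The probe set used here, the brightest on average, read 6.62 and 7.24 unstimulated, 6.03 and 6.12 with HL7G, and 5.53, 6.60 and 6.63 with R848, CpG B and poly I:C. Both HL7G arrays were below both unstimulated arrays, but the difference of -0.85 ± 0.27 was not called (limma, adjusted p = 0.0673). Hnrnpf has 4 other probe sets on the array, whose HL7G differences were 1.08, 1.27, 1.35 and -0.0047. With the mean of its probe sets the Hnrnpf difference was 0.57 (adjusted p = 0.143), while the 3 rescalings of the arrays called the brightest probe set lower, at adjusted p-values of 0.00800 to 0.0481. The direction of Hnrnpf was therefore not settled by these arrays.

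Among the SR protein genes 5 of 10 rose with HL7G and 0 fell, with a median difference of 1.01. Srsf2 (SC35), a speckle protein that recognises exonic enhancers, read 5.19 and 6.37 unstimulated, 8.62 and 7.73 with HL7G, and 8.44, 8.25 and 7.79 with R848, CpG B and poly I:C. Its stimulated arrays all stood above the unstimulated ones, and the agonist arrays lay within the spread of the 2 HL7G arrays. The HL7G difference was 2.39 ± 0.45 (adjusted p = 0.0180). Srsf6 (SRp55), a regulator of exon inclusion, read 4.50 and 4.92, then 7.21 and 6.49, then 6.68, 6.94 and 5.998 in the same order. It rose by 2.15 ± 0.30 (adjusted p = 0.0120), and its second, dimmer probe set had a difference of -0.42.

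Srsf5, an SR protein known to be induced as an early gene, read 5.60 and 6.97 unstimulated, 8.12 and 7.87 with HL7G, and 7.68, 7.43 and 7.68 with R848, CpG B and poly I:C. The unstimulated arrays differed by 1.37 from each other, the second widest gap among the 47 genes, so the rise was 2.53 in mouse 1 and 0.91 in mouse 2 (1.72 ± 0.43 over both, adjusted p = 0.0355). Srsf1, the founding SR protein (SF2/ASF), rose by 1.66 ± 0.31 and Srsf4 by 1.06 ± 0.26 (adjusted p = 0.0184 and 0.0327). A second Srsf1 probe set had a difference of -0.15. Srsf3, Srsf9 and Srsf11 had differences of 0.96, 0.71 and 0.65 that did not pass the test. Srsf12 read 4.25 and 4.59, then 4.20 and 4.20, then 3.95, 4.40 and 4.34, which is below the level of testing on every array. Srsf10, an SR protein that represses splicing when dephosphorylated, was also below it, with 3.19 and 3.36, then 3.77 and 3.49, then 3.67, 4.39 and 3.59.

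Of the 9 Sf3a and Sf3b genes 4 rose with HL7G and 0 fell, with a median difference of 1.00. Sf3b1, the largest subunit, which contacts the branch point and is recurrently mutated in myelodysplastic syndromes, read 4.72 and 5.54 unstimulated, 7.48 and 7.82 with HL7G, and 6.71, 6.86 and 6.49 with R848, CpG B and poly I:C. It was 1 of 3 genes that were highest on the HL7G array of mouse 2, and its HL7G arrays, agonist arrays and unstimulated arrays formed 3 separate levels. The rise was 2.52 ± 0.32 (adjusted p = 0.0120). Sf3b2, which bridges the complex to SF3B4, read 4.62 and 4.99, then 6.69 and 6.05, then 6.20, 6.06 and 5.88, and rose by 1.57 ± 0.29 (adjusted p = 0.0171). Its second, dim probe set differed by -0.16. Sf3b6 (p14, which touches the branch point adenosine) rose by 1.34 and Sf3a3 by 1.00 (adjusted p = 0.0327 and 0.0318). Sf3b6 reached the level of testing on the HL7G array of mouse 1 alone (5.46). In the fit blocked by mouse, Sf3a3 was not called (adjusted p = 0.0508).

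Sf3b3, a beta-propeller subunit, read 5.24 and 5.41 unstimulated, 7.38 and 5.998 with HL7G, and 6.995, 6.54 and 6.29 with R848, CpG B and poly I:C. The 2 HL7G arrays differed by 1.38, and the difference of 1.36 ± 0.43 was not called (adjusted p = 0.0675), whereas the fit blocked by mouse called it (adjusted p = 0.0464). The Sf3b3 locus also holds the small nucleolar RNA Snord111, and whether its probes read that RNA was not tested. Sf3a2 (0.84), Sf3b5 (0.71) and Sf3a1 (0.55) did not pass the test either. Sf3b4 read 4.06 and 3.59, then 3.94 and 3.49, then 4.48, 4.03 and 4.08, below the level of testing throughout.

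Snrp genes, which encode core and particle-specific snRNP proteins, moved least often: 2 of 9 rose with HL7G, 0 fell, and the median difference was 0.72. Whether the classes differ from each other was not tested. Snrpd3, an Sm ring protein, read 5.53 and 5.72 unstimulated, 7.42 and 6.46 with HL7G, and 6.86, 6.74 and 6.43 with R848, CpG B and poly I:C. All stimulated arrays were above the unstimulated ones, with a rise of 1.31 ± 0.33 (adjusted p = 0.0381). Snrpd1, another Sm ring protein, read 4.33 and 4.55, then 5.44 and 5.52, then 5.50, 5.15 and 5.22. The spread within its groups was small beside the step between them (1.04 ± 0.22, adjusted p = 0.0224).

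Snrpb2, the U2-specific B'' protein, read 4.11 and 3.67 unstimulated, 5.36 and 4.49 with HL7G, and 4.45, 4.18 and 4.25 with R848, CpG B and poly I:C. It was above 5 on 1 array alone, and its difference of 1.03 ± 0.33 was not called (adjusted p = 0.0732), but passed in the fit blocked by mouse (adjusted p = 0.0407). Snrpd2 gave opposite signs in the mice: 5.03 and 5.37 unstimulated, 5.93 and 4.84 with HL7G, 5.90, 5.49 and 5.63 with the agonists. Its HL7G difference was 0.89 in mouse 1 and -0.53 in mouse 2 (0.18 ± 0.37 over both, adjusted p = 0.734). Snrpc, the U1-specific C protein that helps to recognise the 5′ splice site, read 5.34 and 5.13, then 5.50 and 5.20, then 4.89, 5.41 and 4.66. Its groups overlapped (0.11 ± 0.23, adjusted p = 0.732). Snrpe (0.97), Snrpa1 (0.72), Snrpg (0.44) and Snrpb (0.39) were not called.

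Within mice, HL7G was above unstimulated for 43 of the 47 genes in mouse 1, for 42 in mouse 2 and for 41 in both animals. Over all 22180 genes HL7G was above unstimulated for 38.1% in mouse 1 and 46.5% in mouse 2. Over the 1337 bright genes these values were 72.6% and 74.3%, and over the 19 of them in the set 94.7% in each mouse. The sizes differed over the 47 genes: the median was 1.48 in mouse 1, where 36 genes were higher with HL7G by 1 or more. It was 0.74 in mouse 2, where 15 genes were. Of all 22180 genes, 2675 and 1079 were higher by 1 or more in mouse 1 and mouse 2. Genes lower by 1 or more are not in these counts. Both ends of the comparison contributed to the gap. The unstimulated level was higher in mouse 2 for 36 genes (median 0.32), and the HL7G level was higher in mouse 1 for 42 genes (median of mouse 2 minus mouse 1 -0.51). Over all 22180 genes these medians were -0.02 and 0.03. They were 0.15 and -0.18 over the 1337 bright genes, and 0.62 and -0.55 over the 19 of them in the set. With 1 array per mouse and condition, the animal and the array cannot be told apart.

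**Figure D2:**
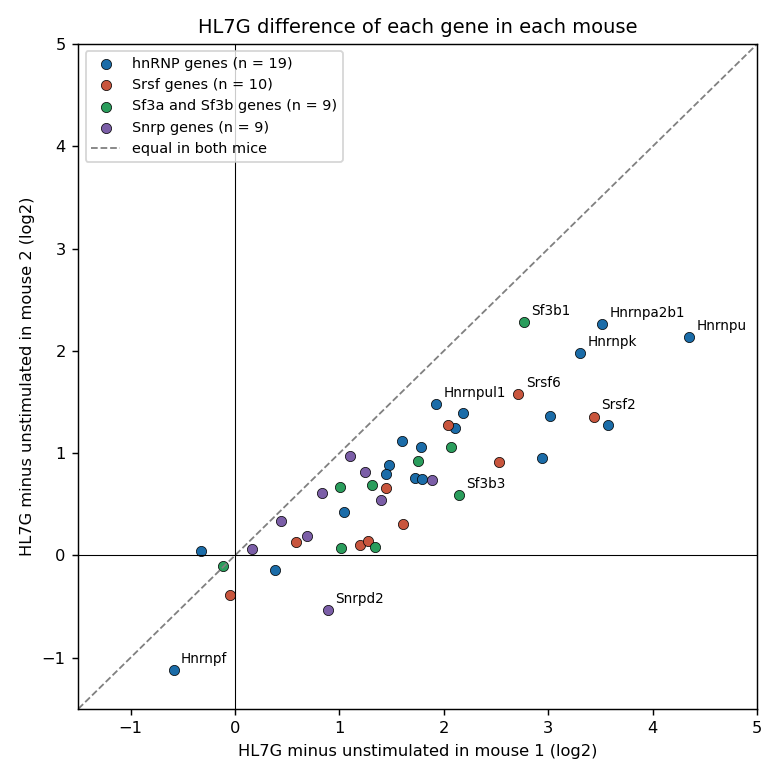
HL7G minus unstimulated difference (log2) of each of the 47 genes in mouse 1 (x axis) and in mouse 2 (y axis), coloured by class, with the dashed line where both would be equal. Most points lie to the right of the line, with medians of 1.48 in mouse 1 and 0.74 in mouse 2, Hnrnpf is below 0 in both mice, and Snrpd2 has opposite signs.

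The agonists were compared with the same 2 unstimulated arrays, so their differences are not independent of those of HL7G. In limma, R848, CpG B and poly I:C called 0% of all genes tested higher and 0% lower, and so 0 of the 47 genes. At an unadjusted p under 0.05, limma had 26 of the 47 genes with R848 (22.9% of all genes tested, in either direction), 22 with CpG B (12.3%) and 16 with poly I:C (9.48%). The smallest adjusted p of the 47 genes was that of Hnrnpa2b1 each time: 0.0854 with R848, 0.207 with CpG B and 0.409 with poly I:C. The median differences over the 47 genes were 1.00, 0.75 and 0.58, beside -0.04, -0.06 and -0.06 over all 22180 genes. Over the 1337 bright genes they were 0.74, 0.47 and 0.47, and over the 19 of them in the set 1.58, 1.49 and 1.16. For 36 of the 47 genes all 5 stimulated arrays stood above both unstimulated arrays, as they did for 15.5% of all genes. The counts of 0 depended on the arrays that gave the spread. With either HL7G array left out, the agonist differences stay the same. The spread then comes from the 2 unstimulated arrays alone, with 1 residual degree of freedom. For the agonists both omissions are therefore the same test, and they cannot check each other. Some of the 47 genes were called in it, but a count from so little spread is not given.

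With R848 the largest differences were those of Hnrnpu (3.03 ± 0.63) and Srsf2 (2.66 ± 0.55), and the lowest was that of Hnrnpf (-1.40 ± 0.33, adjusted p = 0.0951). With CpG B they were Hnrnpu (3.37 ± 0.63) and Hnrnpa2b1 (2.57 ± 0.39), and Hnrnpf was again the lowest at -0.33 ± 0.33. With poly I:C they were Hnrnpu (2.77 ± 0.63) and Hnrnpa2b1 (2.31 ± 0.39), and the lowest was Snrpc at -0.57 ± 0.28. None of these passed the adjusted threshold, and each agonist value rests on 1 array that was assumed to vary like the others.

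Against the unstimulated array of mouse 1, which comes from the same animal, the median differences over the 47 genes were 1.16 with R848, 0.84 with CpG B and 0.76 with poly I:C, beside 1.48 with HL7G. R848 gave the highest of the 3 agonist levels for 29 genes, CpG B for 14 and poly I:C for 4. The same count over all genes was not made. R848 lay above poly I:C for 41 of the 47 genes (median 0.27), where 54.9% of all genes did (median 0.04). It did so for 67.8% of the 1337 bright genes (median 0.19) and for 94.7% of the 19 of them in the set (median 0.42). The medians of R848 minus CpG B (0.12) and CpG B minus poly I:C (0.18) were smaller. These are differences between single arrays with no replicate check.

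**Figure D3:**
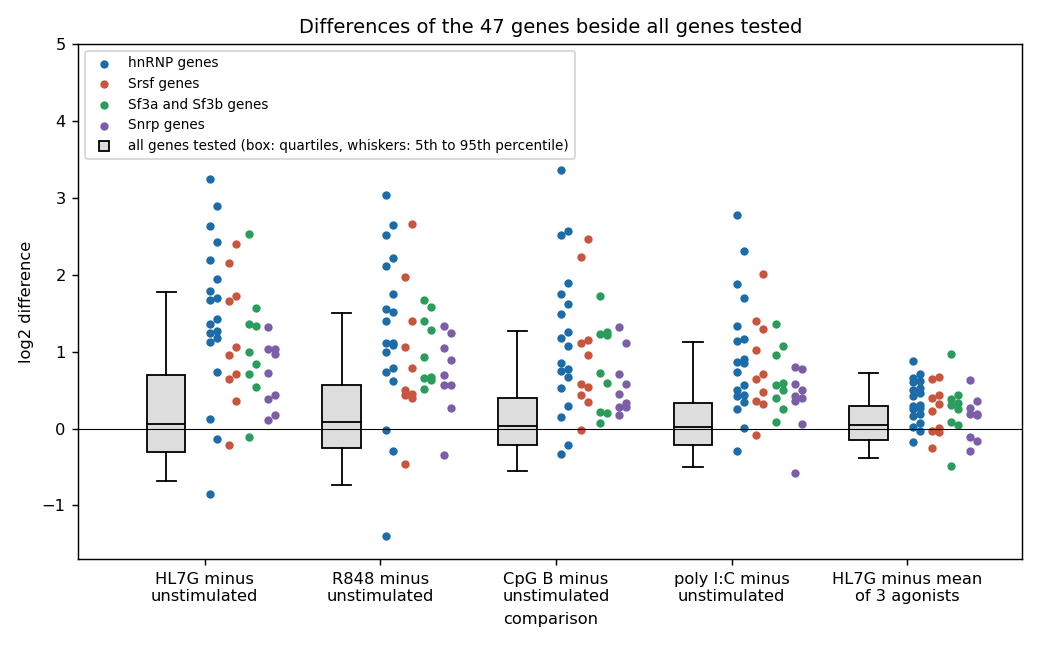
Log2 differences of the 47 genes (points, coloured by class) in 5 comparisons, beside all 11119 genes tested (box with quartiles and median, whiskers from the 5th to the 95th percentile). The points lie mostly above 0 in the 4 comparisons with unstimulated cells, with medians from 0.58 to 1.12, and nearer 0 in HL7G minus the mean of the 3 agonists, with a median of 0.27.

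HL7G was also set against the mean of the 3 agonists, a comparison that uses no unstimulated array. Limma called 0% of all genes tested higher and 0% lower, and 5 of the 47 genes had an unadjusted p under 0.05 (10.8% of all genes tested). These were Sf3b1 (0.97 ± 0.29, adjusted p = 0.387), Hnrnpul1 (0.87 ± 0.21, adjusted p = 0.338), Hnrnpk (0.70 ± 0.30), Srsf4 (0.67) and Hnrnph2 (0.66). The median over the 47 genes was 0.27 (range -0.48 to 0.97). All agonist arrays came from mouse 1, and the HL7G array of that mouse alone stood above the agonist mean by a median of 0.57. Over the 42 tested genes the median went from 0.31 to 0.05 without the HL7G array of mouse 1, to 0.65 without that of mouse 2, to 0.19 without the poly I:C array and to 0.05 with quantile normalization. Both HL7G arrays were above all 3 agonist arrays for 13 genes, against 13.4% of all genes. They were below all 3 for Snrpb and for Sf3b4, which was under the level of testing on every array. The share of all genes below was not computed. The lowest differences were those of Sf3b4 (-0.48), Snrpd2 (-0.29 ± 0.34) and Srsf10 (-0.25). An interval for a gene of this set was wide: the median standard error of this comparison was 0.28. Even the largest difference of the set, that of Sf3b1 (0.97 ± 0.29), was not called.

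Many genes that work beside these factors also rose with HL7G, though not in every list. Over 7 lists of other splicing genes, 163 were found on the array and 138 tested. Of these limma called 66 higher and 0 lower with HL7G (median 0.85 over the 163). Beside this, 16.3% of all genes tested were called higher and 1.89% lower. SR protein kinases and SR-related proteins had 17 of 25 called higher (median 1.35). Among them were Pnn (3.04 ± 0.33), a speckle and exon junction protein, Srrm2 (2.65 ± 0.40), a scaffold of nuclear speckles, Prpf4b (2.60 ± 0.31), a kinase of the tri-snRNP, and Son (1.66 ± 0.40), another speckle scaffold. Proteins specific to single snRNPs and their partners had 17 of 35 called higher (median 0.98), among them Snrnp70 (2.59 ± 0.29), the U1 70K protein that SR proteins contact. Dhx15, a helicase that takes spliceosomes apart, rose by 2.31 ± 0.36, Luc7l2, a U1-associated protein, by 1.96 ± 0.43 and Rbm17 (SPF45) by 1.86 ± 0.43.

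Other hnRNP-like proteins and splicing regulators had 14 of 39 called higher (median 0.85), led by Rbm25 (2.80 ± 0.40), Pcbp2 (2.68 ± 0.35), a poly(C)-binding protein related to Hnrnpk, Rbm39 (2.51 ± 0.50) and Syncrip (2.48 ± 0.36), also known as hnRNP Q. The Prp19 complex and catalytic step factors had 11 of 28 (median 0.80), with Ik (2.01), Isy1 (1.91), Bcas2 (1.68) and Zmat2 (1.60). Of these 28 genes, 25 had a difference above 0, and Cwc22 had the lowest (-0.77, not called). The exon junction complex and nonsense-mediated decay list had 3 of 9 (median 0.51), led by the kinase Smg1 (2.35), with Upf2 (1.22) and Smg5 (1.08). Upf1 had a difference of 1.04 that was not called. These named genes belong to decay, and 7 of the 9 were above 0. Rbm8a and Eif4a3, of the exon junction complex, had differences of -0.51 (not called) and -0.27 (below the level of testing).

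LSm proteins, which form a ring related to that of the Sm proteins, had 3 of 13 called higher (9 tested, median 0.45). These were Lsm14a (2.11), a P-body protein, Lsm8 (1.21), which marks the nuclear U6 ring, and Lsm3 (1.05). The SMN complex and the other factors that load Sm proteins onto snRNA had 1 of 14 (7 tested, median 0.47), namely Strap (1.48). This count was not above the 16.3% of all genes tested. Of its other tested genes Tgs1 (1.10), Prmt5 (0.98) and Gemin5 (0.76) had the largest differences and did not pass the test. Smn1, which names the complex, had a difference of 1.01 below the level of testing. The lists with the lowest medians were thus the LSm, SMN and decay lists, and a test of the difference between lists was not made.

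**Figure D4:**
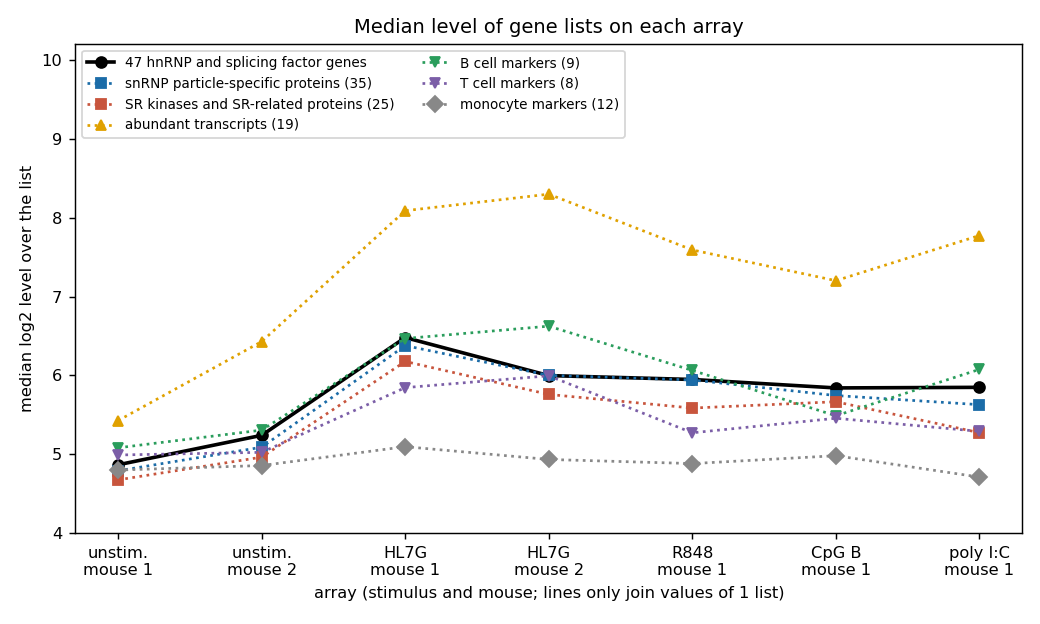
Median log2 level over each gene list (y axis) on each of the 7 arrays (x axis), for the 47 genes, 2 splicing lists, abundant transcripts and 3 cell type lists, with lines that only join the values of 1 list. The abundant transcripts moved from 5.43 and 6.43 unstimulated to between 7.20 and 8.30 on stimulated arrays, and the 47 genes from 4.87 and 5.24 to between 5.84 and 6.48.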

How the data were processed

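Spleen monocyte RNA of 2 mice was measured on 7 Affymetrix Mouse Gene 2.0 ST arrays. The deposited table holds log2 levels for 41345 probe sets. Transcriptome Analysis Console, Affymetrix Expression Console and RMA (background correction, quantile normalization and probe summary) are listed without versions in the submitters' processing notes. The genome build of the probes was not stated in the sources used. Array medians were 4.40 to 4.54.

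Probe sets were named from GEO's platform annotation: 23521 had 1 symbol, 1814 several and 16010 none, and RefSeq (GRCm38.p6) held the identifiers of 23328 and changed 0 symbols. The brightest single-symbol probe set on average stood for a gene. All 7 arrays entered 1 fit with 5 groups in limma 3.58.1 (R 4.3.3), with 2-sided tests adjusted by Benjamini-Hochberg over all genes tested, and the fit was tested on simulated data first. The ± values are standard errors of this fit. The spread came from the unstimulated and HL7G groups (2 residual and 4.94 prior degrees of freedom), so the 7 arrays of 2 animals limit the precision.

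Same-numbered arrays came from the same mouse. Deviations of mouse 2 from mouse 1 in the unstimulated and HL7G groups had r = -0.146 over the genes tested. A block for the mouse was 1 of the alternatives, beside array scaling, probe set choice, level filter, variance model and leaving out each array. Genes were named by size within each class, and pathway genes by the 4 largest differences of a list. The genes and lists were chosen with earlier results of these data known. Promoters came from a RefSeq table, 0 deposited columns were left unused, and protein sequences were not used here.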

Additional observations from a re-analysis of the deposited data

How the results depend on the processing

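All 25 called genes kept a positive HL7G difference under every alternative that tested them. Their number moved from 25 to 11 with a mean level of at least 6 (15 of the 25 were tested then, and 34.2% of all genes were called). That mean includes the stimulated arrays, so genes that rose pass it more readily. Leaving out 1 array gave 0 to 36 called genes with HL7G, 0 to 23 with R848, 0 to 14 with CpG B and 0 to 2 with poly I:C, and 0 for HL7G against the agonists. The lowest HL7G count came without the unstimulated array of mouse 1, the highest without the HL7G array of mouse 2. Quantile normalization called 8 genes with R848 (7 higher and Hnrnpf lower, with 5.17% of all genes) and 3 with CpG B (1.08%), and a variance trend 1 with R848 (0.854%); the cause was not tested. With HL7G, quantile normalization and cyclic loess each called 17 of the 47 genes higher and Hnrnpf lower, and median centring 24 higher and Hnrnpf lower. Over all genes the split of higher to lower calls with HL7G was 1814 to 210 as deposited, 1484 to 409 centred, 1372 to 625 with loess and 1394 to 1027 with quantile normalization. These scalings moved the median HL7G difference of all genes tested from 0.06 to -0.07, -0.08 and -0.12, and that of the tested splicing factor genes from 1.25 to 1.13, 0.76 and 0.82. With the mouse as a block 27 genes were called higher with HL7G, where 16.6% of all genes tested were called in either direction. Hnrnpa0, Sf3b3 and Snrpb2 entered and Sf3a3 left, with no other call changed. The number of arrays limits what an agonist comparison can show.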
